A study of Mus musculus with 8 samples.

Results

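Protocadherins are cadherin-related adhesion proteins of the cell surface, best known from the nervous system. Of 66 probes whose annotated gene symbol starts with Pcdh, the brightest was kept for each gene, which gave 59 genes among 18312 genes and unnamed probes on the array. The clustered genes numbered 50, with 8 in the alpha, 22 in the beta and 20 in the gamma cluster, and the other 9 were non-clustered.

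The 3 clusters lie side by side on a chromosome. Each neuron switches on a small set of their promoters, a choice that depends on CTCF, cohesin and DNA methylation, and the resulting proteins form complexes that bind only cells with a matching set. Alpha and gamma transcripts join a variable first exon to exons shared by their whole cluster, whereas each beta gene is a separate short gene. Non-clustered protocadherins are scattered through the genome and act in cell sorting, axon growth and synapse formation. In human cancers the CpG-rich promoters of several of them, PCDH10 among these, are known to be methylated.

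All mice were C57Bl/6. TRAMP mice express viral T antigens from a probasin promoter, which is active in prostate epithelium. The KitW-sh group was 1 prostate tumour sample taken at 24 weeks from TRAMP mice that carried KitW-sh, an allele that leaves adult mice without mast cells. The cromolyn group was 3 prostate tumour samples of TRAMP mice given cromolyn, a mast cell stabiliser, from 8 weeks and taken at 24 weeks. The untreated TRAMP group was 2 tumour samples of 30 weeks, and the wild-type group 2 samples of non-tumour prostate of 30 weeks. The comparison of tumours with stabilised, missing and untouched mast cells is what the groups were made for. Age and treatment or genotype cannot be told apart between the 24-week tumours and the older groups. Nothing in the labels says that replicates came from separate animals, so the spread behind the p-values may be technical. The number of arrays limits the precision.

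Values per array are deposited intensities, in arbitrary linear units, and levels of different probes are not compared. A probe over 217.3 is called above the limit, and 56.3% to 56.4% of all probes were so on each array. Differences are fitted on background-corrected, normalized log2 levels and are given ± SE with limma's adjusted p. Where a group had no array above the limit, the difference is given as at least a fold, from the brighter group's mean level against the lowest level of a probe above the limit.

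More protocadherins were above the limit in the 24-week tumours than in the other samples. Of the 59 genes, 26 were above the limit on the KitW-sh array and 25, 25 and 21 on the cromolyn arrays, against 10 and 8 on the untreated TRAMP arrays and 11 and 13 on the wild-type arrays. The gap was widest in the alpha and beta clusters. Beta genes above the limit numbered 12 with KitW-sh and 11, 13 and 11 with cromolyn, against 3 and 3 in untreated TRAMP and 4 and 5 in wild type. Alpha genes numbered 4 with KitW-sh and 3, 4 and 3 with cromolyn, against 0 and 0 in untreated TRAMP and 1 and 1 in wild type. Gamma genes overlapped, at 5 with KitW-sh and 6, 4 and 3 with cromolyn, against 4 and 2 in untreated TRAMP and 3 and 4 in wild type. Non-clustered genes numbered 5 with KitW-sh and 5, 4 and 4 with cromolyn, against 3 on each of the other 4 arrays. The share of all genes and unnamed probes above the limit was nearly equal, at 58% with KitW-sh and 57.5% to 57.9% with cromolyn. It was 57.9% and 58% in untreated TRAMP and 58.9% and 59.2% in wild type. The deposited arrays have nearly the same distribution of intensities, so these overall shares could hardly differ.

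**Figure D1:**
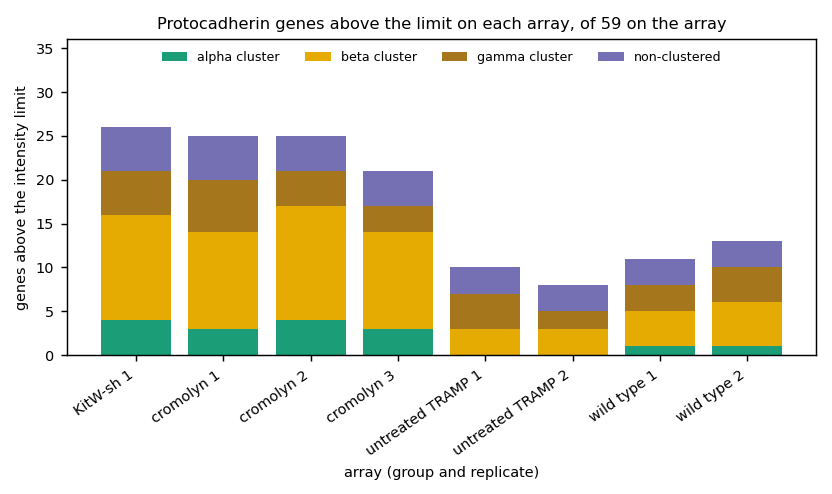
Number of protocadherin genes above the intensity limit (vertical axis) on each array (horizontal axis), stacked by cluster. The 4 arrays of 24-week tumours hold 21 to 26 genes and the 4 arrays of 30-week samples 8 to 13.

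In all, 32 of the 59 genes were above the limit on at least 1 array and were tested, and 27 were not above it on any array. Of the 32, 17 were above the limit on 24-week arrays only, so that passing the filter and differing are not separate facts for them. The genes that stayed below the limit were 4 alpha genes (Pcdha7, Pcdha9, Pcdha11, Pcdhac1), 8 beta, 12 gamma and 3 non-clustered ones (Pcdh15, Pcdh18 and Pcdh20).

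**Figure D2:**
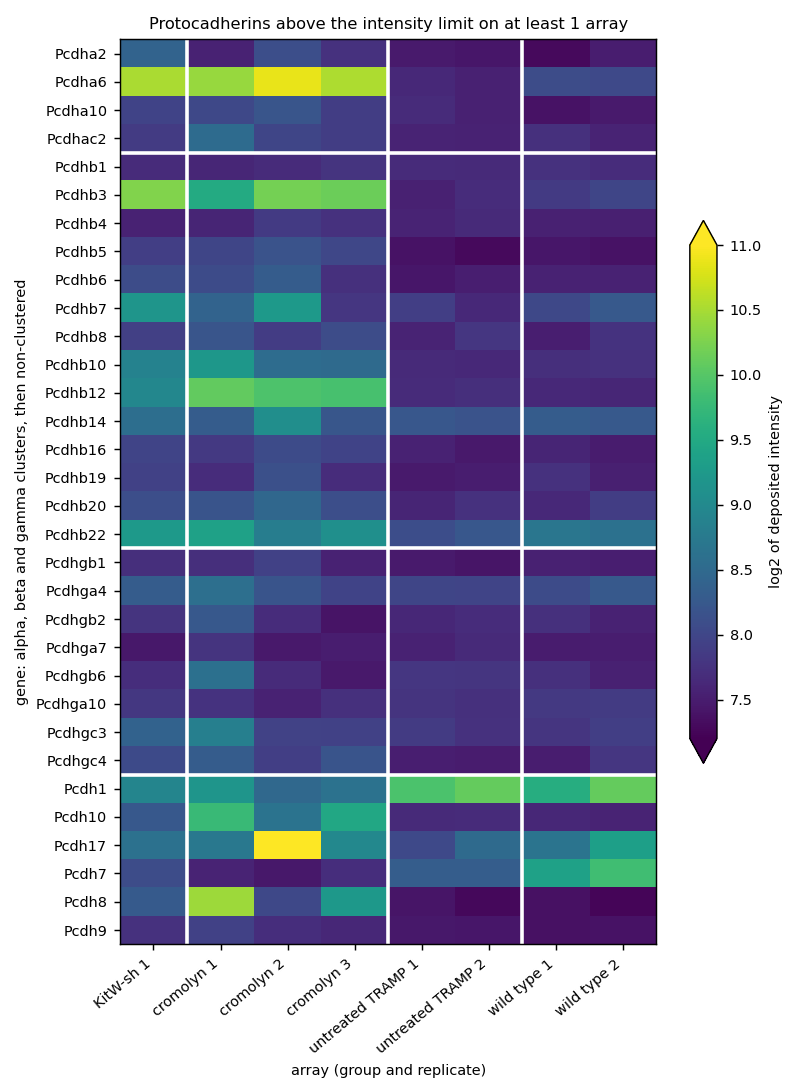
Log2 of the deposited intensity (colour) of the 32 protocadherins above the limit on at least 1 array (vertical axis, by cluster in chromosomal order, then non-clustered) on the 8 arrays (horizontal axis). Pcdha6, Pcdhb3 and Pcdhb12 are bright on all 24-week arrays, Pcdh17 stands out on cromolyn replicate 2, and Pcdh7 is brightest in wild type.

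In cromolyn tumours, 14 of the 59 genes rose and 2 fell against untreated TRAMP. Over all 13005 features tested, 37.1% were called, 19% higher and 18.1% lower. With no filter on either side, 16 of the 59 members (27.1%) and 26% of all 18312 features were called. Over both directions the members' share was thus close to the background. By direction, 2430 features were higher and 2331 lower, against 14 members higher and 2 lower. Without TRAMP_30wk replicate 1 or 2 the 16 calls came to 6 and 7. With the filter, clustered genes gave 12 of the rises and no fall, and non-clustered genes gave 2 rises and 2 falls. Without it, clustered genes gave 11 rises and non-clustered genes 3 rises and 2 falls. There Pcdhac2 was not called, while Pcdh18, above the limit on no array, was. Over every member without the filter, the median log2 difference was 0.29 for the 50 clustered and 0.48 for the 9 non-clustered genes, against 0.02 over all 18312 features. By cluster it was 0.48 for alpha, 0.55 for beta and 0.11 for gamma genes. The list was named with results of these data known, so these counts are a description.

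Beta genes rose in 8 of 22 cases with cromolyn. Pcdhb12 had intensities of 1084, 986 and 952 with cromolyn, against 204 and 209 in untreated TRAMP. It rose at least 7.09-fold (adjusted p = 5.95e-05), and all 3 cromolyn arrays lay far above both untreated arrays. Pcdhb3 had 734, 1185 and 1136 with cromolyn, against 187 and 206 in untreated TRAMP, where it was not above the limit. The rise of Pcdhb3 was at least 6.99-fold (adjusted p = 0.000346), with no overlap between the groups. Pcdhb10 had 593, 374 and 366 with cromolyn, against 202 and 199.7 in untreated TRAMP, and rose at least 2.65-fold (adjusted p = 0.00545). The cromolyn arrays were again all above the untreated ones, replicate 1 most of all. Pcdhb22 was measured in every sample, at 661, 448 and 547 with cromolyn, against 274 and 302 in untreated TRAMP. It rose by 1.19 ± 0.23 on the log2 scale (adjusted p = 0.00738).

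The other 4 lay closer to the limit. Pcdhb5 had 255, 287 and 259 with cromolyn, against 167 and 158 in untreated TRAMP (at least 1.38-fold, adjusted p = 0.0016). Pcdhb20 had 290.2, 354 and 277 with cromolyn, against 194 and 214 in untreated TRAMP (at least 1.67-fold, adjusted p = 0.022). Pcdhb16 had 227, 267 and 249 with cromolyn, against 188 and 175 in untreated TRAMP (at least 1.23-fold, adjusted p = 0.0172). In each of these the groups were apart, by a margin that is small beside the background. Pcdhb6 had 268, 316 and 211 with cromolyn, above the limit on 2 of 3 arrays, against 172 and 183 in untreated TRAMP (at least 1.33-fold, adjusted p = 0.0335). Pcdhb3, Pcdhb5, Pcdhb10 and Pcdhb12 stayed called with each of 7 arrays left out in turn. Leaving out TRAMP_30wk replicate 1 gave an adjusted p of 0.0685 for Pcdhb22, 0.154 for Pcdhb20, 0.0737 for Pcdhb16 and 0.182 for Pcdhb6. Leaving out TRAMP_30wk replicate 2 gave 0.0786 for Pcdhb20, 0.138 for Pcdhb16 and 0.12 for Pcdhb6. Pcdhb6 was also not called without TRAMP_cromolyn replicate 1 (0.075), with only the 2 groups fitted (0.0557) or on uncorrected intensities (0.0573). The call of Pcdhb6 was lost with either wild_type array left out too, and leaving out 1 or the other gives the same fit.

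Alpha genes rose in 3 of 8 cases. Pcdha6 had 1361, 1870.3 and 1474 with cromolyn, against 200.2 and 187 in untreated TRAMP. It rose at least 11.3-fold (adjusted p = 5.95e-05) and stayed called with each of 7 arrays left out. A further Pcdha6 probe was not above the limit on any array, with a highest value of 206. Which part of a transcript each probe reads is not given in the sources used here, and the shared exons of the alpha and gamma clusters mean that a probe named for 1 such gene may report several. Pcdha10 had 259, 293 and 236 with cromolyn, against 203 and 187 in untreated TRAMP (at least 1.34-fold, adjusted p = 0.0318). Pcdhac2, a C-type isoform that mouse serotonergic neurons need for spacing their axons, had 368, 256 and 238 with cromolyn, against 192 and 189.7 in untreated TRAMP (at least 1.48-fold, adjusted p = 0.049). Both of these lay near the limit, and neither call held throughout. With TRAMP_30wk replicate 1 or 2 left out, adjusted p was 0.104 and 0.203 for Pcdha10 and 0.185 and 0.195 for Pcdhac2. Pcdha10 was not called without TRAMP_cromolyn replicate 1 (0.0605) or on uncorrected intensities (0.0525). Pcdhac2 was not called with only the 2 groups fitted (0.0709), on uncorrected intensities (0.0782), with median centring (0.0518) or with all probes tested (0.0573). The call of Pcdhac2 was lost with either wild_type array left out too, and leaving out 1 or the other gives the same fit.

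In the gamma cluster 1 of 20 genes rose. Pcdhgc4, a C-type isoform that mouse neurons need to survive, had 315, 239 and 293 with cromolyn, against 183 and 179.8 in untreated TRAMP (at least 1.48-fold, adjusted p = 0.0181). All 3 cromolyn arrays were above both untreated ones. The adjusted p was 0.0976 and 0.108 without TRAMP_30wk replicate 1 or 2 and 0.0532 without TRAMP_cromolyn replicate 3.

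**Figure D3:**
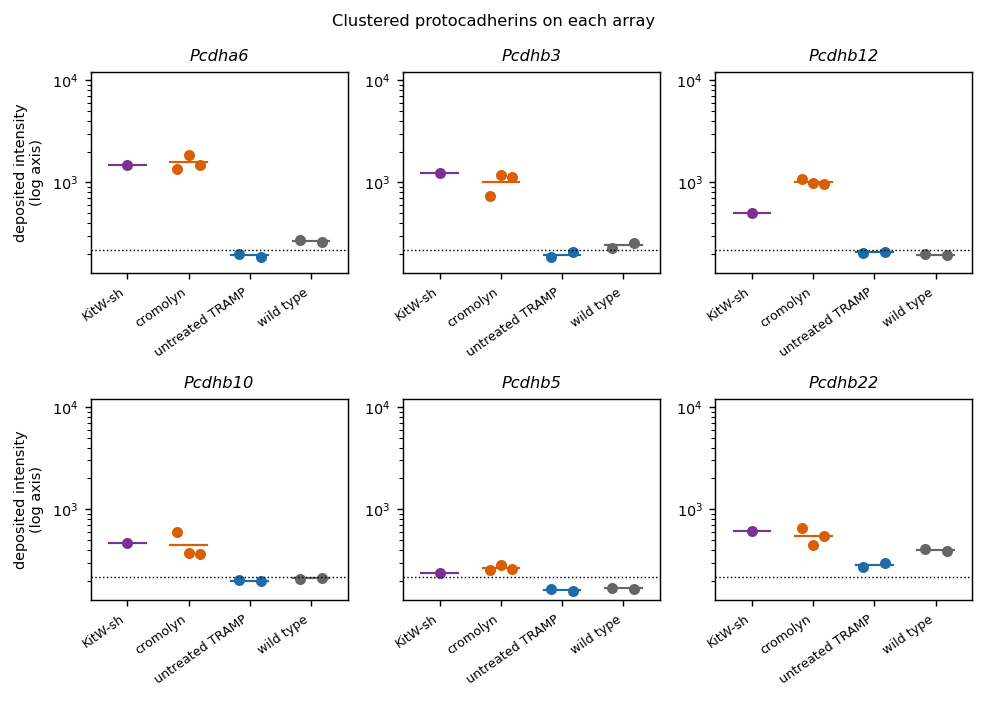
Deposited intensity (vertical axis, log scale) of 6 clustered protocadherins by group (horizontal axis), with each point an array, each bar a group mean and the dotted line the limit of 217.3. All 4 arrays of 24-week tumours lie above both untreated TRAMP arrays in each panel.

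In the KitW-sh tumour, 7 of the 59 genes rose and none fell against untreated TRAMP, and each of the 7 was clustered (2 alpha and 5 beta). Over all features 22.7% were called, 11.4% higher and 11.2% lower. With no filter on either side, 11.9% of the 59 members and 16% of all features were called. Over both directions the members' share was thus below the background. By direction, 1490 of 18312 features were higher and 1438 lower, against 7 members higher and none lower. The count was 20 with only the 2 groups fitted and 4 with the replicate block. Without the filter the median log2 difference was 0.37 for clustered and 0.47 for non-clustered genes, against 0.00213 over all features. The comparison rests on 1 array, assumed to vary like the other groups. With only the 2 groups fitted, the residual spread comes from the 2 untreated arrays alone. The KitW-sh comparison shares its untreated arrays with the cromolyn comparison, so the lists of the 2 comparisons are not independent of each other.

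Pcdha6 had 1469.9 in the KitW-sh tumour, against 200.2 and 187 in untreated TRAMP (at least 10.7-fold, adjusted p = 0.000483). Pcdhb3 had 1241 with KitW-sh, against 187 and 206 in untreated TRAMP (at least 8.9-fold, adjusted p = 0.00172). Pcdhb12 had 497 with KitW-sh, against 204 and 209 in untreated TRAMP (at least 3.16-fold, adjusted p = 0.00225). These 3 stayed called with each of 7 arrays left out. Pcdhb10 had 471 with KitW-sh (at least 2.96-fold, adjusted p = 0.02), Pcdhb5 had 239.6 (at least 1.17-fold, adjusted p = 0.0198), and Pcdhb22 had 610.2, a log2 difference of 1.39 ± 0.30 (adjusted p = 0.0209). Pcdha2 had 339 with KitW-sh, against 177 and 172 in untreated TRAMP (at least 1.94-fold, adjusted p = 0.0334). Of the cromolyn arrays, with 190.1, 278 and 214, only replicate 2 was above the limit for Pcdha2. The calls of these 4 genes needed both untreated arrays. With TRAMP_30wk replicate 1 or 2 left out, adjusted p was 0.0863 and 0.0862 for Pcdhb10, 0.0775 and 0.109 for Pcdhb5, 0.106 and 0.0733 for Pcdhb22, and 0.117 and 0.129 for Pcdha2. Pcdha2 was also not called without TRAMP_cromolyn replicate 3 (0.0538). With TRAMP_cromolyn replicate 2, whose spread the fit shares, left out, 12 genes were called in place of 7, and without TRAMP_30wk replicate 1 or 2 there were 3.

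Set along the chromosome, several rises in the beta cluster were interleaved with genes that stayed below or near the limit. Others were not, as Pcdhb5 and Pcdhb6, both called with cromolyn, are neighbours. The next genes, Pcdhb7 and Pcdhb8, were not called but were above the limit on all 24-week arrays. Pcdhb10 and Pcdhb12 flank Pcdhb11, whose highest value on any array was 187. Pcdhb3 lies between Pcdhb2, with a highest value of 204, and Pcdhb4, with 230.5. Pcdhb22, at the end of the beta row, follows Pcdhb21, which reached 216. In the gamma cluster the differences of Pcdhgc3 and Pcdhgc4, near its end, were larger than those of the other 18 genes in both comparisons. Beta genes are close copies of each other, and cross-reading between their probes was not tested.

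**Figure D4:**
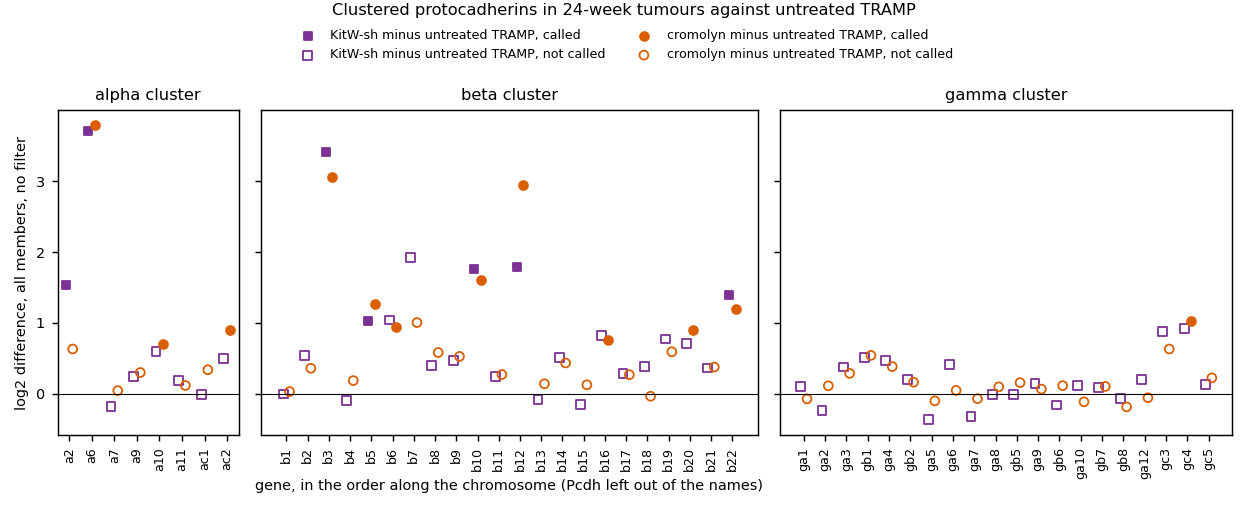
Log2 difference against untreated TRAMP (vertical axis, no filter) for the 50 clustered genes in chromosomal order (horizontal axis), for the KitW-sh tumour (squares) and the cromolyn tumours (circles), filled where called. The largest differences are those of a6, b3 and b12, a2 is called with KitW-sh, and 1 gamma gene is called with cromolyn.

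Among non-clustered genes, Pcdh8 and Pcdh10 were above the limit on all 24-week arrays and on no other. Pcdh9 was above it on 1 cromolyn array alone. Against untreated TRAMP, Pcdh1 and Pcdh7 were called lower with cromolyn and not with KitW-sh. The 250 bases before the start of Pcdh10, Pcdh8 and Pcdh7 are shown, with differing numbers of CpG, the sequence that methylation acts on. They are from RefSeq (GRCm38.p6), 5′ to 3′ on the gene's strand, with CG dinucleotides in capitals. The table held such windows for 8 of the 9 non-clustered genes.
Pcdh10, chr3:45378148-45378397, plus strand: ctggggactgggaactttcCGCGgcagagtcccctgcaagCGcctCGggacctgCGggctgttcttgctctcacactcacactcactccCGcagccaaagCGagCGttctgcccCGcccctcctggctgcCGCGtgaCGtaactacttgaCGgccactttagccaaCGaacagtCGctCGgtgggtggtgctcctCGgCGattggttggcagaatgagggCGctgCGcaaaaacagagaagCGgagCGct
Pcdh8, chr14:79771313-79771562, minus strand: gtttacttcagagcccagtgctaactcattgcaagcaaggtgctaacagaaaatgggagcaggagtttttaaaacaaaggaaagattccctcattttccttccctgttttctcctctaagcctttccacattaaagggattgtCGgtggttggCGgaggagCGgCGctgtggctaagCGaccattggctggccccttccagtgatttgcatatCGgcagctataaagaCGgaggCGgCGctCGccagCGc
Pcdh7, chr5:57717831-57718080, plus strand: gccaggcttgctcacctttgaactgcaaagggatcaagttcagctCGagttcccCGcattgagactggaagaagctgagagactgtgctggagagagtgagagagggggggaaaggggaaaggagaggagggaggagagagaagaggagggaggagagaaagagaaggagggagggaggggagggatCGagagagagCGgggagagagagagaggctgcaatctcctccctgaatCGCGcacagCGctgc
The Pcdh10 window holds 22 CG dinucleotides, a number that 14.8% of all 32851 windows reach. Pcdh8 holds 11, reached by 35.6%, and Pcdh7 holds 7, reached by 46.3%, where the median window has 6. Of genes tested but called in none of the 3 main comparisons, Pcdh17 held 21 and Pcdh9 held 18. Pcdh18 with 23, Pcdh15 with 6 and Pcdh20 with 3 were above the limit on no array and were not tested with the filter. Methylation was not measured here.

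Pcdh10, which steers axon growth in the mouse forebrain, had 877, 402 and 711 with cromolyn, against 201 and 202 in untreated TRAMP. It rose at least 4.14-fold (adjusted p = 0.00445) and stayed called with each of 7 arrays left out. All 3 Pcdh10 probes were above the limit on the 24-week arrays only. The KitW-sh tumour had 305, lower than each cromolyn array, and its difference from untreated TRAMP did not pass (at least 1.68-fold, adjusted p = 0.239). Pcdh8, also called arcadlin, an activity-regulated protein that takes N-cadherin off the surface of rodent neurons, had 1386, 260.2 and 600.0 with cromolyn, against 170.0 and 156 in untreated TRAMP. It rose at least 3.75-fold (adjusted p = 0.0305), with cromolyn arrays that differed widely among themselves. Its KitW-sh value of 309.6 gave a difference from untreated TRAMP that did not pass (adjusted p = 0.325). The other Pcdh8 probe was above the limit on cromolyn replicate 1 alone, at 267. For Pcdh8 the cromolyn call was lost without TRAMP_30wk replicate 1 or 2 and without TRAMP_cromolyn replicate 3 (adjusted p = 0.0777). It was also lost with only the 2 groups fitted (0.0542) and on uncorrected intensities (0.0597). The call of Pcdh8 was lost with either wild_type array left out too, and leaving out 1 or the other gives the same fit.

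Pcdh1, a protocadherin of epithelia including the airway, had 583, 357 and 397 with cromolyn, against 969.5 and 1097 in untreated TRAMP. It fell by 1.45 on the log2 scale (SE 0.31, adjusted p = 0.0117), with no overlap between the groups, and the other Pcdh1 probe ran the same way, at 306, 219 and 269 against 394 and 458. The KitW-sh tumour had 488 for Pcdh1, a difference of -1.24 ± 0.42 that did not pass (adjusted p = 0.0796). Pcdh7, which binds a protein phosphatase through its cytoplasmic tail, had 191, 174 and 207 with cromolyn, none above the limit, against 319 and 319.9 in untreated TRAMP. It fell at least 1.79-fold (adjusted p = 0.00759). Its KitW-sh value of 272 was above the limit and between the 2 groups (adjusted p = 0.505 against untreated TRAMP). The falls of Pcdh1 and Pcdh7 were not called without TRAMP_30wk replicate 1 (adjusted p = 0.0623 and 0.0583) or TRAMP_30wk replicate 2 (0.0856 and 0.0585).

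**Figure D5:**
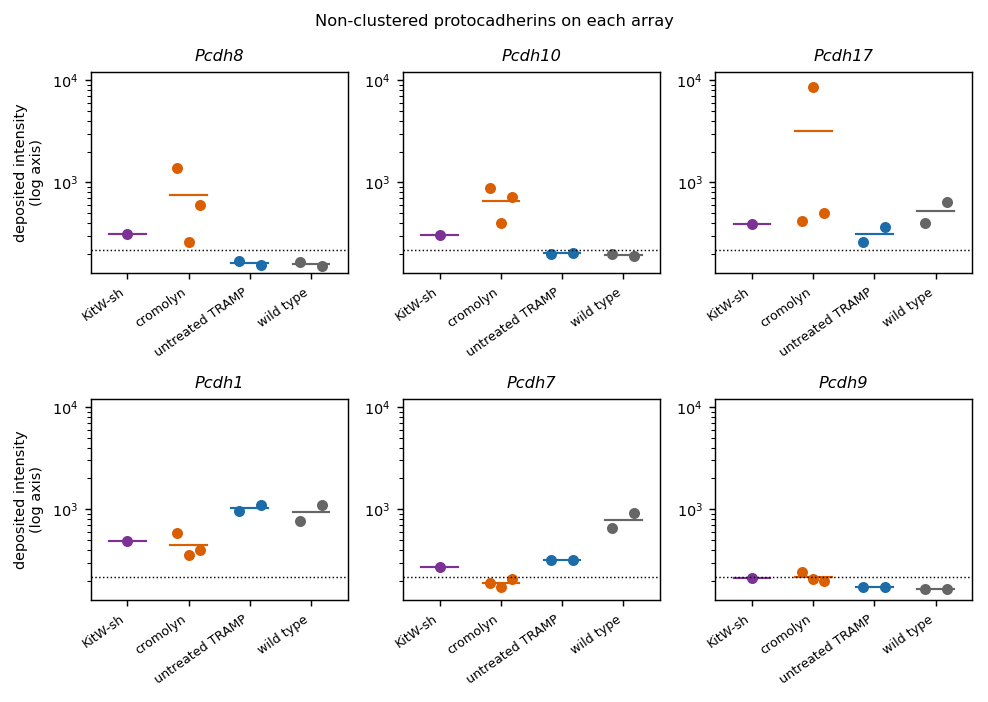
Deposited intensity (vertical axis, log scale) of the 6 non-clustered protocadherins above the limit on at least 1 array, by group (horizontal axis), with each point an array, each bar a group mean and the dotted line the limit of 217.3. Pcdh8 and Pcdh10 clear the limit on all 24-week arrays and no other, and Pcdh9 on 1 cromolyn array alone. Pcdh7 is highest in wild type, and the cromolyn mean of Pcdh17 is set by replicate 2.

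Between untreated TRAMP and wild type, 1 of the 59 genes was called, against 6.64% of all features (3.74% higher and 2.9% lower), and with no filter 1.69% of members against 4.89% of features. Of the tested members, 31 of 32 did not pass. The gene was Pcdh7, with 319 and 319.9 in untreated TRAMP, against 660.4 and 913 in wild type. It fell by 1.57 on the log2 scale (SE 0.25, adjusted p = 0.0153). The call was lost without TRAMP_30wk replicate 1 (adjusted p = 0.11), TRAMP_30wk replicate 2 (0.121) or wild_type replicate 2 (0.0691). The 2 further Pcdh7 probes were below the limit on every array, except 1 of them with 222 in wild type replicate 1. Pcdha6 had 200.2 and 187 in untreated TRAMP, against 273 and 262 in wild type, a difference of -0.76 ± 0.21 that did not pass (adjusted p = 0.0933). Without the filter the median log2 difference was -0.09 for the clustered genes. Markers of other cell types also differed between untreated TRAMP and wild type. Skeletal muscle markers fell in 8 of 9 tested cases, with a summed intensity of 4456 to 4750 in untreated TRAMP against 47587 to 63502 in wild type. Adipocyte markers fell in 4 of 5, endothelial in 3 of 12, neuroendocrine and neural in 3 of 14, basal epithelial in 2 of 7, and smooth muscle, mast cell and T and NK cell markers in 1 each. Cell cycle genes rose in 4 of 4, with a summed intensity of 28228 to 29000 in untreated TRAMP against 3250 to 3615 in wild type. The part of these shifts in the fall of Pcdh7 was not tested.

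Against wild type, 12 of the 59 genes rose and 2 fell with cromolyn, where 46% of all features were called, 23.1% higher and 22.9% lower. With KitW-sh 7 rose and 1 fell, where 31.2% were called, 15.9% higher and 15.3% lower. With no filter 23.7% of members and 32.3% of features were called with cromolyn, and 13.6% of members and 21.8% of features with KitW-sh. Over both directions the members' shares thus lay below the background. By direction, 12 members were higher and 2 lower with cromolyn, against 2979 and 2933 features. With KitW-sh 7 members were higher and 1 lower, against 2051 and 1932 features. With each of 7 arrays left out in turn, 8 of the 14 cromolyn calls and 4 of the 8 KitW-sh calls held, and without wild_type replicate 1 or 2 the KitW-sh calls came to 4 and 5. Pcdha6 was measured in both groups, at 1361, 1870.3 and 1474 with cromolyn and 273 and 262 in wild type, and rose by 3.03 ± 0.20 (adjusted p = 8.54e-05). With KitW-sh it rose by 2.94 ± 0.26 (adjusted p = 0.000673). Pcdhb3, with 230.1 and 255 in wild type, rose by 2.55 ± 0.27 in cromolyn tumours (adjusted p = 0.000486) and by 2.90 ± 0.36 in the KitW-sh tumour (adjusted p = 0.00193). For these 2 genes the wild-type arrays were above the limit, so both sides were measured. Pcdh7 fell to below the limit with cromolyn, at least 5.31-fold (adjusted p = 0.00019). With KitW-sh it fell by 1.90 on the log2 scale (SE 0.30, adjusted p = 0.00501). Pcdh9, a neural protocadherin, was called against wild type with cromolyn (adjusted p = 0.027). Only 1 of 3 cromolyn arrays and no wild-type array was above the limit, so the size of this difference was not measured. Pcdh9 intensities were 246, 209 and 197 with cromolyn and 165 and 168 in wild type. The call was lost without wild_type replicate 1 or 2, with only the 2 groups fitted (adjusted p = 0.0588) and on uncorrected intensities (0.0635). The call of Pcdh9 was lost with either TRAMP_30wk array left out too, and leaving out 1 or the other gives the same fit.

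The remaining values of the called genes complete this picture. In wild type Pcdhb12 had 199 and 194, Pcdhb10 had 209.8 and 213, Pcdhb5 had 172 and 167, and Pcdhb16 had 193 and 180.0, all below the limit. Pcdhb6 had 190.1 and 188 there, Pcdha10 had 167 and 178, Pcdha2 had 158 and 182, and Pcdhac2 had 213 and 191. None of these 8 clustered genes was above the limit in wild type. Pcdhb20, with 199 and 237, and Pcdhgc4, with 181 and 223, each cleared it on wild type replicate 2, and Pcdhb22, with 412 and 391, on both arrays. Pcdh10 had 198 and 192 in wild type, Pcdh8 had 166 and 153, and Pcdh1 had 761 and 1099. The wild-type levels of these non-clustered genes thus lay apart from those of the cromolyn tumours. In the KitW-sh tumour Pcdha10 had 249, Pcdhac2 had 233, Pcdhb6 had 272, Pcdhb16 had 253, Pcdhb20 had 277 and Pcdhgc4 had 265. All 6 were above the limit in that tumour, and their differences from untreated TRAMP did not pass.

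Against wild type, markers moved widely in both 24-week groups. Skeletal muscle markers were lower in 9 of 9 tested cases with cromolyn and with KitW-sh, smooth muscle in 10 and 9 of 10, luminal epithelial in 10 and 8 of 11, basal epithelial in 7 and 5 of 7, adipocyte in 4 and 3 of 5, mast cell in 6 and 2 of 6 and endothelial in 6 and 2 of 12. Neuroendocrine and neural markers were higher in 9 of 14 in each comparison, with 1 lower for KitW-sh, and cell cycle genes in 4 of 4. Their part in the protocadherin values was not tested.

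Between the KitW-sh tumour and the cromolyn tumours no protocadherin was called by limma, against 0.0231% of all features. At an unadjusted p under 0.05 there were 4 of 32. The share of all features at that threshold is not given here, so this count has no background beside it. The lowest adjusted p was 0.373, for Pcdhb12, with 497 in the KitW-sh tumour and 1084, 986 and 952 in the cromolyn tumours (-1.16 ± 0.19). A difference was not shown, and with 1 KitW-sh array equality was not shown either.

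The 15 tested genes that passed in none of the 3 main comparisons included Pcdh17, which organises presynaptic sites in the mouse brain. Pcdh17 had 393 with KitW-sh, 423, 8494 and 503 with cromolyn, 262 and 365 in untreated TRAMP and 404 and 649 in wild type. Cromolyn replicate 2 stands alone here, and the other cromolyn arrays lie within the range of wild type. Pcdhb7 had 583 with KitW-sh, 341, 609 and 224 with cromolyn, 240.4 and 199 in untreated TRAMP and 259.9 and 306 in wild type, so that its groups overlap. Pcdhb14 and Pcdhga4 were above the limit on all 8 arrays, at 288 to 539 and 251 to 386. Pcdhgc3 ranged over 215 to 458 and Pcdhb8 over 183 to 293. Pcdhgb6 reached 388, Pcdhgb2 304, Pcdhb19 279, Pcdhgb1 245, Pcdhga10 231, Pcdhb4 230.5, Pcdhga7 219 and Pcdhb1 218 at their highest, all close to the limit on most arrays.

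Several cell type markers moved with these genes. Of 16 neuroendocrine and neural markers, 14 were tested, and against untreated TRAMP 10 rose in cromolyn tumours and 9 in the KitW-sh tumour, with none lower. Their summed intensity was 67863 with KitW-sh and 62034 to 73732 with cromolyn, against 2860 to 3020 in untreated TRAMP and 6799 to 7552 in wild type. In untreated TRAMP 3 of the 14 were above the limit, and Chga, Chgb, Insm1 and Elavl3 were not. Luminal epithelial markers ran the other way, with 9 of 11 tested lower with cromolyn and 7 lower with KitW-sh. Their summed intensity was 8029 with KitW-sh and 2094 to 6251 with cromolyn, against 117490 to 119316 in untreated TRAMP and 94571 to 99691 in wild type. Pbsn, which encodes a secreted product of prostate luminal cells, was above the limit in untreated TRAMP and wild type and on none of the 24-week arrays. Smooth muscle markers summed to 18779 with KitW-sh and 7388 to 13143 with cromolyn, against 140432 to 181942 in untreated TRAMP and 222890 to 239176 in wild type. Schwann cell markers had 3 of 9 tested, of which 1 rose and 1 fell with cromolyn and none passed with KitW-sh. Fewer cells of a type and less RNA per cell cannot be told apart in such bulk samples, and the part of these shifts in the protocadherin values was not tested.

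Endothelial markers, 12 tested of 13, had none past the test in either 24-week comparison with untreated TRAMP. Skeletal muscle had 1 of 9 lower in each, basal epithelium 5 and 3 of 7 lower, fibroblast and matrix 5 and 1 of 10 lower, mast cell 3 and 1 of 6 lower, macrophage 1 and 0 of 6 lower, and T and NK cell 1 and 1 of 5 lower, with cromolyn and KitW-sh in that order. Adipocyte (5 tested) and B cell markers (2 tested) had none past the test, and cell cycle genes had 3 and 2 of 4 higher.

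Genes that act with protocadherins were read from lists chosen by role. Of 22 regulators of promoter choice and chromatin at the clusters, 16 were tested, and against untreated TRAMP 7 rose and 1 fell in cromolyn tumours while 6 rose and none fell in the KitW-sh tumour. These are 50% and 37.5% of those tested, where 37.1% and 22.7% of all features were called. The cohesin subunit gene Rad21 rose by 1.22 ± 0.20 in cromolyn tumours (adjusted p = 0.00426) and by 1.32 ± 0.27 in the KitW-sh tumour (adjusted p = 0.0172). Smchd1, which represses clustered protocadherin genes in mice, rose by 0.58 ± 0.15 and 0.81 ± 0.20 in these comparisons (adjusted p = 0.0244 and 0.0325). The cohesin loader gene Nipbl fell by 0.65 with cromolyn (SE 0.20, adjusted p = 0.0401). The list's median was 0.41 with cromolyn and 0.57 with KitW-sh, against 0.05 and 0.02 over all features tested. In untreated TRAMP against wild type 3 of the 16 rose (18.8%, where 6.64% of all features were called), among them the maintenance methyltransferase gene Dnmt1 (1.73 ± 0.20, adjusted p = 0.00469).

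Of 26 cytoplasmic partners and processing enzymes, 18 were tested, with 5 higher and 3 lower for cromolyn and 3 higher and 2 lower for KitW-sh against untreated TRAMP. These shares, 44.4% and 27.8%, lay near the 37.1% and 22.7% of all features, and the list's medians were 0.03 and 0.15. Wasf1, a subunit of the WAVE complex that binds several protocadherin tails, rose by 3.37 ± 0.36 in cromolyn tumours (adjusted p = 0.000724) and by 3.55 ± 0.48 in the KitW-sh tumour (adjusted p = 0.00407). Abi2, of the same complex, rose by 1.85 ± 0.21 and 1.60 ± 0.28 (adjusted p = 0.000908 and 0.00992). Ptk2b, which encodes the kinase Pyk2 that clustered protocadherins inhibit, was lower with cromolyn by at least 3.8-fold (adjusted p = 0.000267). In the KitW-sh tumour it fell by 1.75 on the log2 scale (SE 0.23, adjusted p = 0.00343). The gamma-secretase subunit gene Ncstn fell by 1.57 with cromolyn (SE 0.17, adjusted p = 0.000726) and fell by 1.17 with KitW-sh (SE 0.22, adjusted p = 0.0135).

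Other cadherins were called about as often as all features. Of 24 further non-classical cadherins, 12 were tested, with 4 higher and 1 lower for cromolyn and 2 higher and 1 lower for KitW-sh against untreated TRAMP (41.7% and 25%, where 37.1% and 22.7% of all features were called). Celsr3, a cadherin of axon guidance, rose at least 37.0-fold in cromolyn tumours (adjusted p = 6.63e-05). In the KitW-sh tumour Celsr3 rose at least 39.5-fold (adjusted p = 0.000506). The calsyntenin gene Clstn3 rose at least 21.2-fold and 16.3-fold in these comparisons (adjusted p = 0.000107 and 0.00114). Classical cadherins numbered 12 tested of 22, with 3 higher and 2 lower for cromolyn and 1 higher and 1 lower for KitW-sh (41.7% and 16.7%). The epithelial cadherin gene Cdh1 fell by 4.83 with cromolyn (SE 0.51, adjusted p = 0.000682), and the N-cadherin gene Cdh2 rose at least 3.51-fold (adjusted p = 0.00248).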

How the data were processed

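Total RNA of 8 mouse prostate samples was labelled and hybridised to Illumina expression beadchips, 1 array per sample. The values used are the deposited intensity of 25697 probes, on a linear scale. BeadStudio was used, per the submitters' processing notes, with no version given. Once sorted, the deposited arrays were within 0.0489 log2 units of each other throughout, as quantile normalization leaves them. A further table names its 16 columns (8 of them signals) by slide position. No label links these positions to samples, and they were left out.

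Background was corrected with normexp (offset 50), followed by quantile normalization, log2 and limma 3.58.1 in R 4.3.3. The fit had 1 mean per group and a common spread, with 4 residual degrees of freedom and 2.62 from the prior. The intensity limit of 217.3 lies where 0.01 of a background with mode 181.5 and SD 15.37, read from the dim side of the distribution, would exceed it. Probes above it on at least 1 array were tested, the brightest per gene, which gave 13005 features. In each of 6 comparisons the two-sided p-values got a Benjamini-Hochberg adjustment over all features, and adjusted values under 0.05 were called. Steps were tested on simulated data. Symbols were updated through RefSeq (GRCm38.p6), which matched 66 of 66 protocadherin probes. Every protocadherin above the limit is named, with each array's value where it was called in 1 of the 3 main comparisons. Members and lists were chosen with earlier results of these data known. Alternatives were other background corrections, scalings, filters, probe rules and thresholds, a replicate block, fits on 2 groups and each array left out.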

Additional observations from a re-analysis of the deposited data

How the results depend on the processing

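Counts of protocadherins called kept within 1.5 times their values under uncorrected intensities, an offset of 16, cyclic loess, median centring, no filter, a filter of 2 arrays and the mean of a gene's probes, in all 6 comparisons. No called protocadherin reversed under any setting. With a threshold of 0.01 the counts against untreated TRAMP were 8 (cromolyn) and 3 (KitW-sh). Those against wild type were 8 (cromolyn), 4 (KitW-sh) and 0 (untreated TRAMP). Untreated TRAMP had 3 against wild type at an unadjusted p under 0.05, with no share of all features given at that threshold. With only the 2 groups compared, 20 in place of 7 were called between KitW-sh and untreated TRAMP, and 2 in place of 1 between untreated TRAMP and wild type. For KitW-sh that fit takes its residual spread from the 2 untreated arrays alone. The cause of the changed counts was not tested. When arrays were left out singly, counts against untreated TRAMP ran from 6 to 16 (cromolyn) and 3 to 12 (KitW-sh). Those against wild type ran from 10 to 15 (cromolyn), 4 to 12 (KitW-sh) and 0 to 2 (untreated TRAMP). Between KitW-sh and cromolyn the count stayed at 0. On all arrays 4 had an unadjusted p under 0.05, again with no share of all features given. A group left with 1 array took its spread from the other groups. Replicate numbers recur in the titles, and deviations of same-numbered arrays correlated at 0.00208 to 0.0745 across genes. In a group of 2 arrays the deviations mirror each other. These correlations therefore cannot show whether same-numbered arrays share more than a number. With the replicate block the counts against untreated TRAMP were 11 (cromolyn) and 4 (KitW-sh), those against wild type 13 (cromolyn), 5 (KitW-sh) and 0 (untreated TRAMP). Uncorrected intensities gave 12 in place of 16 calls for cromolyn against untreated TRAMP, and many of the called genes lay little above the limit of 217.3.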

Other observations

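Cromolyn tumours differed among themselves in which protocadherins were highest, a pattern noticed after the values were seen. Of the 8 gamma genes tested, 7 were highest on cromolyn replicate 1 among the 3 cromolyn arrays, among them Pcdhgb6 (388, against 203 and 177 on the other arrays), Pcdhgc3 (458, against 248 and 244) and Pcdhgb2 (304, against 205 and 169). Of the 14 beta genes tested, 9 were highest on cromolyn replicate 2, among them Pcdhb7 (609, against 341 and 224) and Pcdhb14 (539, against 316 and 296). Pcdh17 on that array was 8494, against 423 and 503. Some of these genes, such as Pcdhga7 on replicate 1 and Pcdhb4 on replicate 2, passed the filter only through the array where they were highest. The share of all features highest on each cromolyn array is not given here, so these counts have no background beside them. With 3 arrays the pattern was not tested.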
